A study of Homo sapiens with 15 samples.

Results

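The interferon response genes described here are 46 listed human genes, among them guanylate binding proteins (GBPs), the IFIT and IFITM families, nucleic acid sensors, STAT and IRF transcription factors, restriction factors and genes of class I antigen presentation. They were looked up by symbol in both deposited RNA-seq tables. With an identifier there were 17769 genes in the knockout table, 27 of them members, and 60510 in the resistance table, with all 46 members. A member was tested if its log2 CPM (reads scaled to library size, on a log2 scale) was -1 or more in at least 3 libraries of a table, which kept 27 members of the knockout table and 29 of the resistance table.

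All libraries were made from K562, a BCR-ABL1+ chronic myeloid leukemia line with erythroid features, and the question was how loss of each HSP90 isoform, or long-term selection with an HSP90 inhibitor, left the expression of these genes. The knockout experiment compared 3 empty vector (EV) libraries, labelled WT and untreated, with 3 HSP90α-KO and 3 HSP90β-KO libraries, also untreated. According to the labels, cells of this experiment received Cas9 with a guide RNA by lentivirus, were sorted on a fluorescence marker and were selected as single clones. The resistance experiment compared 3 libraries of parental cells, labelled WT and kept long term in DMSO (the solvent control), with 3 libraries of PU-H71 resistant cells (PUHr), labelled WT and kept long term in rising amounts of PU-H71, an inhibitor that binds the N-terminal domain of HSP90. The resistant cells were picked as clones. Neither the number of clones per group nor separate cultures are given in the labels. Clone and genotype, or clone and resistance, therefore cannot be told apart, and the p-values measure the spread between these libraries only. Each comparison rests on RNA from bulk cells, in which fewer cells with a transcript and less transcript per cell cannot be told apart.

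Type I and type III interferons signal through JAK kinases to a complex of STAT proteins and IRF9, which binds the interferon-stimulated response element (ISRE) in promoters. Interferon-γ acts through a STAT dimer, which binds the gamma-activated site (GAS). The induced genes limit virus entry, replication and release, amplify nucleic acid sensing and raise antigen presentation, and many of them also keep a low level without interferon. No group was treated with interferon according to the labels, so the values are levels in unstimulated culture.

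Promoters are shown for members whose levels are described further on, to let the motifs be read beside the values. The sequences are the 250 bases before the transcription start from RefSeq (GRCh38.p14), written 5′ to 3′ in the direction of transcription. Capitals mark the ISRE core, GAAANNGAAA on either strand (reverse complement TTTCNNTTTC), or the GAS core, TTCNNNGAA, which is its own reverse complement. Overlapping matches run together. IFITM3 (chr11:320861-321110, minus strand), IFIH1 (chr2:162318685-162318934, minus strand) and SAMD9 (chr7:93117980-93118229, minus strand) are shown because they are members that changed in 2 comparisons with EV or parental cells and hold an ISRE core. SAMD9L (chr7:93148386-93148635, minus strand) is the neighbour of SAMD9 and holds neither motif, and GBP3 (chr1:89022867-89023116, minus strand) holds a GAS core. ISG15 (chr1:1013247-1013496, plus strand) is shown as a classical interferon target that was not called changed.
IFITM3: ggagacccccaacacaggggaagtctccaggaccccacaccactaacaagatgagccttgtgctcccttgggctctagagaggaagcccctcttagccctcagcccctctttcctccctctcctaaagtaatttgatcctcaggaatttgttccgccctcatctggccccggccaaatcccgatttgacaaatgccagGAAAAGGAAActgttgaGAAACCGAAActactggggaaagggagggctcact
IFIH1: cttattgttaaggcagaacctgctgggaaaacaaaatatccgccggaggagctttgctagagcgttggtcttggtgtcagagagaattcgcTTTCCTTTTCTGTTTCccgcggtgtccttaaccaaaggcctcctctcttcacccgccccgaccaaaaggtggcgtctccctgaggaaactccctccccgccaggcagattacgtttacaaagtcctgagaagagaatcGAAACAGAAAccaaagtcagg
SAMD9: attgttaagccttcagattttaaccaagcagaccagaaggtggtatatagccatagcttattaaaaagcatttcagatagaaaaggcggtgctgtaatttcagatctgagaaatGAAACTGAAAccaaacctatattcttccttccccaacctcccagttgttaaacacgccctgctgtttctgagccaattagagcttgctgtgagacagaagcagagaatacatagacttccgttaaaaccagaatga
SAMD9L: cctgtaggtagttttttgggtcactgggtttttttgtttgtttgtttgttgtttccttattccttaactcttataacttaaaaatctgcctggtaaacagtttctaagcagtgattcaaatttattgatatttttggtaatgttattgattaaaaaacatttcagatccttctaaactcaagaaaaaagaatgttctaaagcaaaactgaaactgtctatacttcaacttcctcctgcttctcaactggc
GBP3: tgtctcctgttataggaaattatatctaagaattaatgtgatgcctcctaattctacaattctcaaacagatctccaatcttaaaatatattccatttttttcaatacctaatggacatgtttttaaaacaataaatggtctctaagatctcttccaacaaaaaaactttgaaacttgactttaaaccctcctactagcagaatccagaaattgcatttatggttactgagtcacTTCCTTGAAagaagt
ISG15: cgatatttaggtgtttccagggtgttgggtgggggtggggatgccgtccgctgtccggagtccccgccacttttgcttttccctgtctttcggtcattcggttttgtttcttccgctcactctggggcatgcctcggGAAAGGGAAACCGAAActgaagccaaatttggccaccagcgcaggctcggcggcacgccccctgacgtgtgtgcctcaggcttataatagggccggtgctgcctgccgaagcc

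The ISRE core of IFITM3 begins 52 and 35 bases before the start, that of SAMD9 136 bases before it, and ISG15 holds 2 overlapping matches, at 113 and 107 bases. In IFIH1 the matches lie 159, 153 and 21 bases before the start, the first pair overlapping on the opposite strand. A single promoter window was listed for 28 of the 46 members and several windows for 8. GBP2, GBP5, IFIT2, IFITM2, MX2, OAS2, OASL, IRF7, TRIM22 and HLA-E are named only. An ISRE core was found in 16 of the 28 single windows (57.1%), against 1061 of 35116 windows of all promoters (3.02%). A GAS core was found in 8 of the 28 (28.6%), against 2306 of all windows (6.57%). Of the 8 members with several windows, 5 had an ISRE core and 3 a GAS core in at least 1 window. Among the members with a single window, the ISRE share was the same in the 21 that were tested in either experiment and in the 7 tested in neither, 57.1% each. Of the 7 members with a single window that changed against EV or parental cells, 3 held an ISRE core (42.9%) and 1, GBP3, a GAS core (14.3%). GBP3, GBP4 and HLA-B are among these 7 and were tested only through a group in which they were high. These 2 shares are therefore a description only. IFI6, which was called changed between the knockouts only, held 3 ISRE cores in its single window. A match is a description of letters in this window and not a binding site.

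A library held between 19594381 and 26216730 reads on genes (median 21847942), so that 1 read was worth between 0.0381 and 0.0518 CPM. CPM values below are recovered reads scaled to library size, without the prior count that the log2 values carry. HSP90AA1, which encodes HSP90α, was at 90.4 ± 2.34 CPM (SD, n = 3) in HSP90α-KO against 704 ± 18.7 in EV (log2 fold change -2.96). HSP90AB1, which encodes HSP90β, was at 1913 ± 25.1 CPM in HSP90β-KO against 2806 ± 21.1 in EV (-0.55), so that most of the transcript remained. The transcript level of a gene cut by Cas9 need not follow its protein. Against EV the other isoform was higher in each knockout, HSP90AA1 by 0.78 in HSP90β-KO and HSP90AB1 by 0.24 in HSP90α-KO. In PUHr both were lower than in parental cells. HSP90AA1 was at 1568 ± 21 against 1712 ± 14.1 CPM (-0.13), and HSP90AB1 at 3847 ± 98.1 against 4531 ± 42 CPM (-0.24). These are RNA levels. The authors report a copy number gain over HSP90AA1 in PUHr and more HSP90α protein after re-treatment, neither of which was measured here. The erythroid markers GATA1, TAL1, KLF1, HBG1, HBG2 and TFRC were read in every library, with GATA1 between 144 and 288 CPM, while HBE1 had between 0 and 4 reads in the resistance table. Of the markers of other blood cells, MS4A1 had 0 reads and NCAM1 at most 1 read in the resistance table and CD79A had at most 13 reads in any library. CD3D (3.08 to 12 CPM) and LYZ (23 to 63.6 CPM) were read in all libraries, as were the epithelial markers EPCAM, KRT8 and KRT18. Their part in the results on the members was not tested.

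Much of the interferon program was silent or nearly silent. The 17 members under the minimum in the resistance table were GBP1, GBP4, GBP5, IFI27, IFI30, IFI44, IFI44L, IFIT5, MX1, MX2, OAS1, OAS2, OASL, IRF8, XAF1, HLA-C and AIM2. OASL, a protein of the oligoadenylate synthetase family, had 0 reads in all 6 libraries, and XAF1 and IRF8 had at most 1 read in a library. MX1, a dynamin-like GTPase that blocks influenza virus and is widely read as a marker of interferon action, had between 0 and 3 reads in a library. At this depth a count of 0 allows up to 3 reads. Among these low members GBP1 totalled 29 reads in PUHr and 7 in parental cells, a ratio of 4.0 after scaling to depth (95% exact binomial interval 1.71 to 10.8), and AIM2, a cytosolic DNA sensor, totalled 14 against 38 (0.356, 0.178 to 0.672). The intervals of IFI27 (0.928, 0.514 to 1.67) and IFI30 (0.454, 0.17 to 1.11) include 1. The intervals cover counting error only. In the knockout libraries 19 members were not analysed here, namely these genes without GBP4 and, in addition, IFIT1, ISG20 and DDX60.

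In HSP90α-KO against EV, 7 of the 27 tested members were changed and higher (25.9%, background 5.32% of all tested genes) and 1 was changed and lower (3.7%, background 5.01%). To count as changed, a gene needed an adjusted p under 0.05 in limma together with a log2 fold change of more than 1 in size. By the adjusted p alone, 10 members rose (37%, background 27.5%) and 9 fell (33.3%, background 26.6%), and 8 did not pass. The median log2 fold change of the members was 0.04, close to the -0.01 of all tested genes, while the median of its size was 0.40 against 0.24. Leaving out 1 library in turn gave member medians from -0.16 to 0.13, so its sign is not fixed. GBP3, GBP4 and HLA-B reached the minimum level through the HSP90α-KO libraries, so the test was open to them only because they were high there. They are among the 7 and among the 10, so neither count is evidence on its own. Among the 22 members whose mean log2 CPM was at least 1, 4 were changed and higher and 1 was changed and lower. The share of all genes under this minimum was not taken, so these counts are a description only.

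In HSP90β-KO against EV, 4 of 27 members were changed and higher (14.8%, background 1.83%). In the lower direction limma called 0 members (background 2.65%). Of the members that were lower, 4 had an unadjusted p under 0.05, and voom called 1, GBP4. By the adjusted p alone 10 members rose (37%, background 17.2%) and 3 fell (11.1%, background 17.2%). The median log2 fold change was 0.07 against 0.00 for all tested genes, and the median size was 0.27 against 0.15. Both knockouts were compared with the same EV libraries, so their values are set side by side without a count of shared genes. In the direct contrast of HSP90α-KO against HSP90β-KO, 5 members were changed and higher (18.5%, background 7.14%) and 2 were changed and lower (7.41%, background 5.57%). By the adjusted p alone 9 were higher in HSP90α-KO (33.3%, background 30.1%) and 12 lower (44.4%, background 29.8%). GBP3 and GBP4, 2 of the 5 and also 2 of the 9, reached the minimum through HSP90α-KO only. Both counts in the higher direction are therefore no evidence on their own.

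In PUHr against parental cells, 4 of 29 members were changed and higher (13.8%, background 5.37%) and 4 were changed and lower (13.8%, background 4.69%). HLA-B, 1 of the 4 that were higher, reached the minimum through PUHr only, so the count of 4 is no evidence on its own. By the adjusted p alone 9 rose (31%, background 25.6%) and 11 fell (37.9%, background 25.8%), and 9 did not pass. HLA-B is also among the 9 that rose, so that count is no evidence on its own either. The median log2 fold change was -0.05 against 0.00 for all tested genes, with values from -2.37 for SAMD9 to 2.36 for HLA-B. Over the 21 members whose mean log2 CPM was at least 1, the median was -0.39. The median size of the change was 0.56 against 0.21 over all tested genes. The plot of fold changes by role shows the changed members of HSP90β-KO on the higher side. In HSP90α-KO and PUHr the changed members include some that reached the minimum through the group in which they were high. No balance of directions is therefore read from the plot for these.

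**Figure D1:**
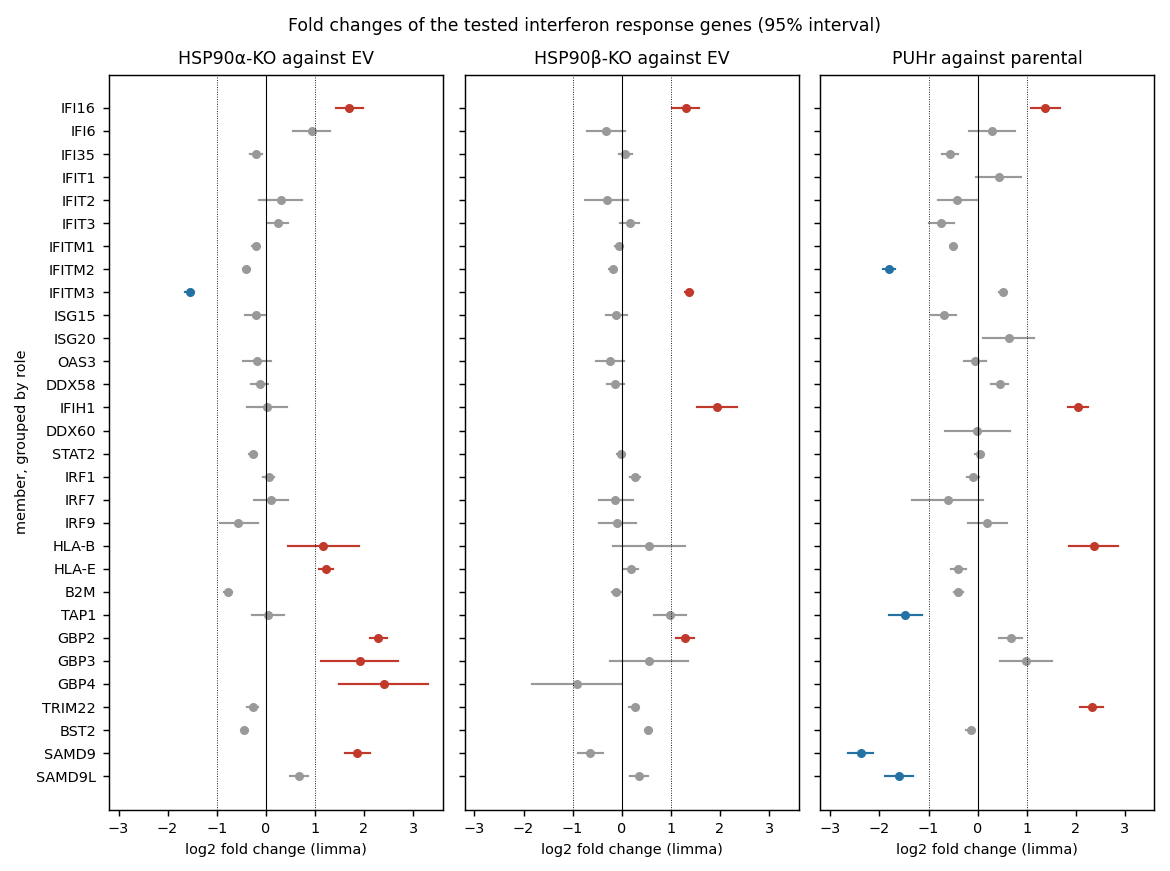
Log2 fold change (x axis) of each tested member (y axis, grouped by role) in HSP90α-KO against EV, HSP90β-KO against EV and PUHr against parental cells, with the 95% interval as a bar. Red points were changed and higher (7, 4 and 4 members), blue points changed and lower (1, 0 and 4), grey points not changed, and dotted lines mark -1 and 1.

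Of the sensors of nucleic acid, IFI16 and IFIH1 carried the changes. IFI16 (chromosome 1, 158999968 to 159055155) is a nuclear DNA sensor of the PYHIN family. It was at 1.81, 1.93 and 1.64 CPM in EV, at 5.66, 6.32 and 6.01 CPM in HSP90α-KO and at 4.77, 4.05 and 4.83 CPM in HSP90β-KO. Both knockouts lay above EV in every library. The log2 fold changes were 1.70 ± 0.132 (SE, adjusted p = 2.2e-11) and 1.30 ± 0.132 (8.8e-09), and HSP90α-KO was above HSP90β-KO by 0.39 (adjusted p = 0.012). In the resistance experiment IFI16 was at 3.04, 2.14 and 2.72 CPM in parental cells and at 7.43, 6.40 and 7.03 CPM in PUHr, a log2 fold change of 1.38 ± 0.137 (8.5e-07). IFI16 was thus higher than its control in each of the 3 comparisons, and no group of libraries overlapped its control.

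IFIH1 (chromosome 2, 162267074 to 162318684) encodes MDA5, a helicase that senses long double-stranded RNA. It was at 1.43, 1.06 and 1.22 CPM in EV, at 1.07, 1.76 and 1.03 CPM in HSP90α-KO and at 5.58, 4.61 and 4.71 CPM in HSP90β-KO. The HSP90α-KO libraries overlapped EV (log2 fold change 0.02, 95% interval -0.38 to 0.43, adjusted p = 0.93), whereas those of HSP90β-KO lay above it (1.94 ± 0.195, 8.6e-09). The difference between the knockouts was itself past the test, at -1.91 for HSP90α-KO against HSP90β-KO (3.3e-09). In PUHr, IFIH1 was at 14.6, 13.1 and 13.2 CPM against 3.04, 3.44 and 3.24 CPM in parental cells, a log2 fold change of 2.04 ± 0.096 (2.1e-10). Within 2 Mb on either side, 8 tested genes that are not members had a median of 0.40 in HSP90β-KO, with values up to 2.91 and 1 gene changed and higher. In PUHr 10 such genes had a median of -0.29, with values from -3.93 to 3.42, 3 changed and higher and 1 changed and lower. DDX58, which encodes the RNA sensor RIG-I, did not pass in either knockout (-0.13 in each) and rose by 0.45 in PUHr (adjusted p = 1.9e-04). DDX60, a helicase linked to RIG-I signalling, was at 0.42 CPM in both groups of the resistance table (-0.01, adjusted p = 0.98).

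Of 4 tested transcription factors of the pathway, 2 fell in HSP90α-KO (background 26.6%) and 1 rose in HSP90β-KO (17.2%). STAT2, a subunit of the complex that binds the ISRE, was at 67.0, 70.1 and 71.8 CPM in EV, at 57.2, 58.4 and 57.9 CPM in HSP90α-KO and at 69.0, 68.1 and 69.4 CPM in HSP90β-KO. All HSP90α-KO libraries were below EV (-0.27 ± 0.039, adjusted p = 1.9e-06), and HSP90β-KO overlapped it (-0.02, 0.8). In the resistance table STAT2 was at 56.7, 56.6 and 56.6 CPM in parental cells and at 59.9, 54.4 and 61.0 CPM in PUHr, which overlap (0.04, 0.43). IRF9, the DNA-binding partner of STAT2, fell by 0.56 in HSP90α-KO (adjusted p = 0.013). IRF1, a factor induced by interferon-γ, rose by 0.27 in HSP90β-KO (1.0e-04). IRF7, which drives interferon-α transcription, did not pass in any comparison. In PUHr the adjusted p of the 4 ran from 0.14 to 0.43, and the largest size there was -0.61 for IRF7 (95% interval -1.33 to 0.10).

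Guanylate binding proteins are GTPases that attack the vacuoles and membranes of pathogens, and GBP2, well above the minimum in every library, was changed and higher in both knockouts. GBP3 and GBP4 were called changed and higher in HSP90α-KO (background 5.32%), through which alone they reached the minimum. The 3 genes lie in one cluster on chromosome 1, GBP3 at 89006679 to 89022894, GBP2 at 89106132 to 89150456 and GBP4 at 89181144 to 89198942. GBP2 was at 5.56, 4.53 and 4.96 CPM in EV, at 24.1, 25.1 and 25.0 CPM in HSP90α-KO and at 11.3, 13.7 and 12.2 CPM in HSP90β-KO. The 3 groups did not overlap. The log2 fold changes against EV were 2.28 ± 0.086 (adjusted p = 6.0e-18) and 1.29 ± 0.086 (3.3e-12), and the knockouts differed by 0.99 (1.4e-10). In the resistance experiment GBP2 was at 3.97, 4.15 and 3.42 CPM in parental cells and at 6.31, 6.06 and 6.05 CPM in PUHr, a rise of 0.67 ± 0.111 (1.5e-04).

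GBP3 and GBP4 were read at the edge of detection in the knockout table. GBP3 had 3, 1 and 3 reads in EV, 9, 14 and 14 in HSP90α-KO and 2, 7 and 5 in HSP90β-KO. Its EV group was at the floor of 3 reads per library, and the totals of 37 against 7 reads gave a ratio of 6.07 after scaling to depth for HSP90α-KO against EV (95% exact binomial interval 2.67 to 16.1, counting error only). The fitted log2 fold change was 1.91 ± 0.383, given as a description, since GBP3 reached the minimum through HSP90α-KO only. GBP4 had 4, 1 and 1 reads in EV, 9, 22 and 20 in HSP90α-KO and 0 in each HSP90β-KO library. HSP90α-KO was above EV by a ratio of 9.75 (4.19 to 27.8) and at least 6.68-fold higher than HSP90β-KO, taken against 3 reads in each HSP90β-KO library. Limma gave a log2 fold change of 2.40 ± 0.440 against EV. It is given as a description, since GBP4 reached the minimum through HSP90α-KO only. HSP90β-KO against EV did not pass for GBP4 (-0.92, adjusted p = 0.11), nor for GBP3 (0.55, 0.29). In the resistance table GBP3 had 11, 11 and 8 reads in parental cells and 29, 19 and 20 in PUHr, without overlap (0.98 ± 0.245, adjusted p = 0.0037). GBP4 had 4, 2 and 4 reads in parental cells and 9, 3 and 9 in PUHr, a ratio of 2.03 whose interval runs from 0.914 to 4.82. The 18 tested genes within 2 Mb of GBP2 that are not members had a median of 0.26 in HSP90α-KO, with values from -0.28 to 0.80.

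The IFITM proteins sit in cell and endosome membranes and hinder the fusion of enveloped viruses. Their genes lie next to each other on chromosome 11, IFITM2 at 303655 to 309397, IFITM1 at 310041 to 315272 and IFITM3 at 319676 to 329475, and are close in sequence, so the split of reads among them is uncertain. IFITM3 was at 68.8, 75.6 and 72.8 CPM in EV, at 25.7, 23.0 and 25.4 CPM in HSP90α-KO and at 187, 189 and 187 CPM in HSP90β-KO. The knockouts lay on opposite sides of EV. The log2 fold change was -1.55 ± 0.045 in HSP90α-KO (adjusted p = 1.8e-20) and 1.37 ± 0.045 in HSP90β-KO (1.2e-18), and the direct contrast gave -2.92 (1.2e-26). Within 2 Mb of IFITM3 the median over 55 tested genes that are not members was -0.05 in HSP90α-KO and -0.02 in HSP90β-KO. Of these neighbours, 5 were changed and higher and 2 changed and lower in HSP90α-KO (-1.47 to 1.46). In HSP90β-KO 2 were changed and higher and 0 changed and lower (-0.93 to 2.36).

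IFITM2 fell beside IFITM3 in HSP90α-KO, but went the other way from it in HSP90β-KO and PUHr. It was at 184, 195 and 187 CPM in EV, at 148, 142 and 139 CPM in HSP90α-KO and at 161, 170 and 168 CPM in HSP90β-KO, and it fell by 0.40 in the former (adjusted p = 1.7e-10) and by 0.18 in the latter (1.2e-04). In the resistance experiment it was at 47.8, 44.8 and 46.2 CPM in parental cells and at 14.0, 12.8 and 12.6 CPM in PUHr, a log2 fold change of -1.81 ± 0.055 (2.1e-12). IFITM3 was at 62.1, 59.8 and 59.2 CPM in parental cells and at 85.3, 84.3 and 88.5 CPM in PUHr, a rise of 0.51 ± 0.035 (1.3e-08). The 2 neighbours thus went in opposite directions in PUHr. IFITM1 fell by 0.21 in HSP90α-KO (1.4e-05) and by 0.50 in PUHr (4.2e-09) and did not pass in HSP90β-KO (-0.06, adjusted p = 0.23).

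ISG15 and IFIT3, commonly read as reporters of type I interferon action, were lower in every PUHr library than in any parental library. ISG15, a ubiquitin-like modifier, was at 11.5, 13.9 and 11.5 CPM in EV, at 11.5, 12.1 and 8.52 CPM in HSP90α-KO and at 10.7, 11.5 and 11.9 CPM in HSP90β-KO. All 3 groups overlapped, with log2 fold changes of -0.21 (95% interval -0.43 to 0.00) and -0.11 (-0.32 to 0.10). In the resistance experiment it was at 8.29, 11.4 and 9.01 CPM in parental cells and at 5.74, 6.57 and 5.25 CPM in PUHr, and it fell by 0.69 (SE 0.121, adjusted p = 2.3e-04, or 0.068 when no gene was filtered out). ISG20, an exonuclease, had 10 to 14 reads in a parental library and 19 to 23 in a PUHr library (0.63, adjusted p = 0.041).

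IFIT3, which stabilises the complex of IFIT proteins that captures viral RNA, was at 6.80, 6.60 and 6.82 CPM in EV, at 7.76, 7.87 and 8.26 CPM in HSP90α-KO and at 7.34, 6.87 and 8.43 CPM in HSP90β-KO. Every knockout library was above every EV library, but by a small step, 0.24 ± 0.096 (adjusted p = 0.039) in HSP90α-KO and 0.16 (0.23) in HSP90β-KO. The former did not pass without any 1 of 5 of the libraries, EV replicates 1, 2 and 3 and HSP90α-KO replicates 2 and 3 (adjusted p from 0.063 to 0.1). In PUHr it was at 3.82, 4.73 and 3.78 CPM against 6.72, 6.38 and 7.60 CPM in parental cells, a log2 fold change of -0.74 ± 0.119 (1.1e-04). IFIT2 did not pass against EV or parental cells, nor did IFIT1, tested in the resistance table only (0.43, adjusted p = 0.12). IFI35, an interferon-induced leucine zipper protein, was at 20.8, 21.9 and 22.8 CPM in EV, at 19.8, 19.6 and 17.4 CPM in HSP90α-KO and at 22.7, 23.5 and 22.6 CPM in HSP90β-KO. In PUHr it was at 7.35, 6.86 and 7.52 CPM against 11.1, 10.7 and 10.4 CPM in parental cells (-0.56 ± 0.081, 3.7e-05). HSP90α-KO lay below EV, at -0.21 (adjusted p = 0.0066, or 0.052 without HSP90α-KO replicate 3), while HSP90β-KO overlapped EV. IFI6, a mitochondrial protein that delays apoptosis, was at 1.76, 1.74 and 2.36 CPM in EV, at 3.03, 4.56 and 3.85 CPM in HSP90α-KO and at 1.57, 1.79 and 1.27 CPM in HSP90β-KO. It rose by 0.93 in HSP90α-KO (adjusted p = 1.3e-04), and HSP90α-KO was above HSP90β-KO by 1.25 (1.8e-06).

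OAS3, which makes the oligoadenylates that activate RNase L, was the single tested member of its family. It was at 3.42, 3.86 and 3.35 CPM in EV, at 2.98, 3.16 and 3.23 CPM in HSP90α-KO and at 3.43, 2.90 and 2.65 CPM in HSP90β-KO. In the resistance experiment it was at 5.03, 5.08 and 4.88 CPM in parental cells and at 5.02, 4.81 and 4.67 CPM in PUHr. The log2 fold changes of -0.18, -0.24 and -0.05 did not pass, with 95% intervals of -0.47 to 0.11, -0.53 to 0.05 and -0.27 to 0.17.

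**Figure D2:**
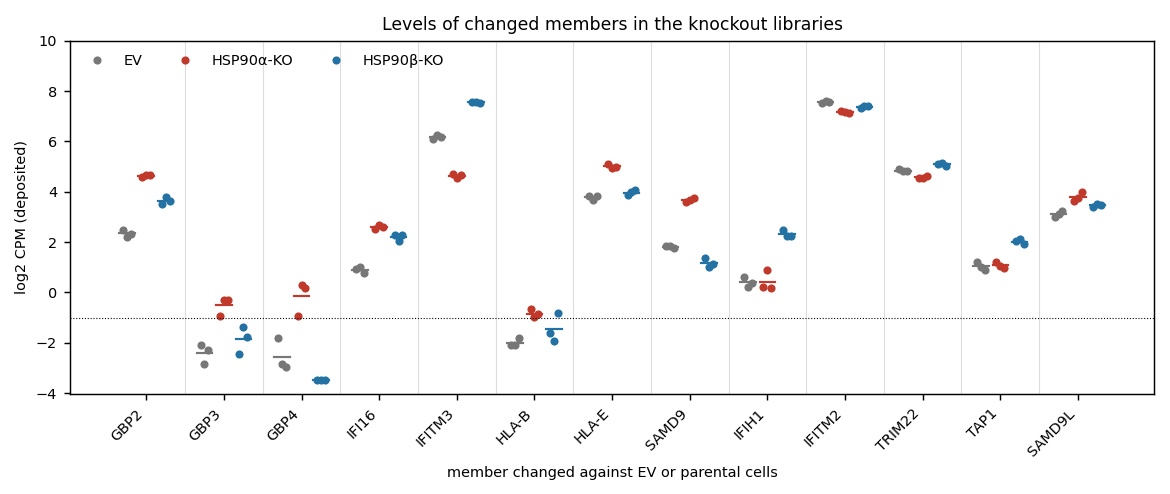
Deposited log2 CPM (y axis) of the 13 members that were changed against EV or parental cells (x axis), for each EV, HSP90α-KO and HSP90β-KO library, with the group mean as a short line and the minimum of -1 as a dotted line. IFITM3 lies on either side of EV in the 2 knockouts, IFIH1 is higher in HSP90β-KO, and GBP3, GBP4 and HLA-B lie above the minimum mainly in HSP90α-KO.

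SAMD9 and SAMD9L are neighbouring paralogs on chromosome 7, at 93099513 to 93118023 and 93130056 to 93148385, whose products restrict poxviruses and hold back cell growth. SAMD9 was at 3.47, 3.47 and 3.28 CPM in EV, at 11.9, 12.6 and 13.5 CPM in HSP90α-KO and at 2.48, 1.92 and 2.10 CPM in HSP90β-KO. HSP90α-KO lay above EV (1.86 ± 0.122, adjusted p = 6.2e-13) and HSP90β-KO below it (-0.64 ± 0.122, 1.5e-04), and the knockouts differed by 2.50 (8.2e-16). In PUHr it was at 1.53, 1.55 and 1.65 CPM against 8.88, 8.39 and 8.26 CPM in parental cells, a log2 fold change of -2.37 ± 0.118 (4.1e-10).

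SAMD9L was at 7.89, 8.48 and 9.26 CPM in EV, at 12.3, 13.3 and 15.7 CPM in HSP90α-KO and at 10.4, 11.4 and 11.0 CPM in HSP90β-KO. Both knockouts lay above EV, by 0.68 (adjusted p = 4.6e-07) and 0.36 (0.0029). In PUHr it was at 2.17, 1.84 and 1.69 CPM against 5.92, 6.04 and 5.72 CPM in parental cells (-1.60 ± 0.133, 1.2e-07). The paralogs thus fell together in PUHr and rose together in HSP90α-KO, but went opposite ways in HSP90β-KO. Within 2 Mb of SAMD9 the median over 27 tested genes that are not members was -0.06 in HSP90α-KO and -0.05 in PUHr. In HSP90α-KO 2 neighbours were changed and higher and 1 changed and lower (-1.11 to 2.90). In PUHr 0 were changed and higher and 3 changed and lower (-4.63 to 0.89).

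TRIM22 (chromosome 11, 5689610 to 5737089), a ubiquitin ligase that restricts retroviruses, was at 29.8, 28.1 and 27.9 CPM in EV, at 23.2, 23.4 and 24.4 CPM in HSP90α-KO and at 34.6, 35.1 and 32.8 CPM in HSP90β-KO. The 3 groups did not overlap, and the steps were small, -0.27 (adjusted p = 8.2e-05) and 0.26 (3.5e-04). In the resistance experiment the step was large, from 2.33, 2.10 and 2.02 CPM in parental cells to 11.9, 11.0 and 10.4 CPM in PUHr, a log2 fold change of 2.32 ± 0.110 (2.5e-10). Of 47 such genes within 2 Mb, 2 were changed and higher and 9 changed and lower in PUHr, with a median of -0.12. The control levels of TRIM22 differed between the experiments, at 28.6 ± 1.02 CPM in EV and 2.15 ± 0.16 CPM in parental cells, and those of IFITM2 did so as well, at 189 ± 5.52 and 46.2 ± 1.53 CPM. The tables were normalized separately, and this difference was not tested. BST2, or tetherin, which holds budding virions at the cell surface, fell by 0.44 in HSP90α-KO (5.2e-11), rose by 0.54 in HSP90β-KO (2.2e-12) and fell by 0.14 in PUHr (0.0063).

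Among the class I antigen presentation genes, HLA-E rose and B2M fell in HSP90α-KO. HLA-E (chromosome 6, 30489509 to 30494194), a non-classical class I molecule read by NK cell receptors, was at 14.3, 12.7 and 14.1 CPM in EV, at 34.5, 30.7 and 31.6 CPM in HSP90α-KO and at 14.4, 15.8 and 16.6 CPM in HSP90β-KO. It rose by 1.23 ± 0.069 in HSP90α-KO (adjusted p = 2.3e-14) and was higher by 0.19 in HSP90β-KO (0.038), a step that did not pass in 9 of its alternatives (adjusted p up to 0.18, without HSP90β-KO replicate 3). In PUHr it was at 9.60, 9.16 and 9.17 CPM against 12.3, 12.3 and 12.0 CPM in parental cells (-0.39 ± 0.071, 3.3e-04). B2M, the light chain shared by class I molecules, went the other way from HLA-E in HSP90α-KO. It averaged 171 ± 8.28 CPM in EV and 100 ± 4.87 CPM in HSP90α-KO (-0.77, 5.8e-15), and it fell by 0.11 in HSP90β-KO (0.042) and by 0.39 in PUHr (2.1e-06).

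HLA-B (chromosome 6, 31353872 to 31367067), a classical class I heavy chain, was close to the floor in the knockout table, with 3, 3 and 5 reads in EV, 11, 8 and 9 in HSP90α-KO and 5, 4 and 12 in HSP90β-KO. HSP90α-KO lay above EV (1.17 ± 0.356), and HSP90β-KO overlapped it. These values are a description, since HLA-B reached the minimum in all HSP90α-KO libraries, 1 HSP90β-KO library and no EV library. The ratio of the HSP90α-KO and EV totals, 28 and 11 reads, was 2.92 (1.41 to 6.5). In parental cells HLA-B had 6, 7 and 7 reads, and in PUHr it had 38, 45 and 49. The fitted log2 fold change was 2.36 ± 0.231, given as a description, and the ratio of totals was 6.37 (3.96 to 10.8). HLA-B reached the minimum in the resistance table through PUHr alone, and it is highly polymorphic, so reads of alleles far from the reference may be missed.

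TAP1 (chromosome 6, 32845209 to 32853816), a subunit of the transporter that carries peptides into the endoplasmic reticulum, was at 2.24, 1.93 and 1.75 CPM in EV, at 2.20, 1.97 and 1.90 CPM in HSP90α-KO and at 4.01, 4.22 and 3.68 CPM in HSP90β-KO. HSP90α-KO overlapped EV (0.04, adjusted p = 0.85), whereas HSP90β-KO lay above it (0.98 ± 0.155, 1.3e-05), just inside the fold limit of 1. In PUHr TAP1 was at 2.13, 1.88 and 1.42 CPM against 4.78, 5.45 and 5.07 CPM in parental cells, a log2 fold change of -1.47 ± 0.156 (1.8e-06). The plot of resistance libraries shows the values of the 8 members changed there. Their separation by group follows largely from the call as changed, so it is a description only.

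**Figure D3:**
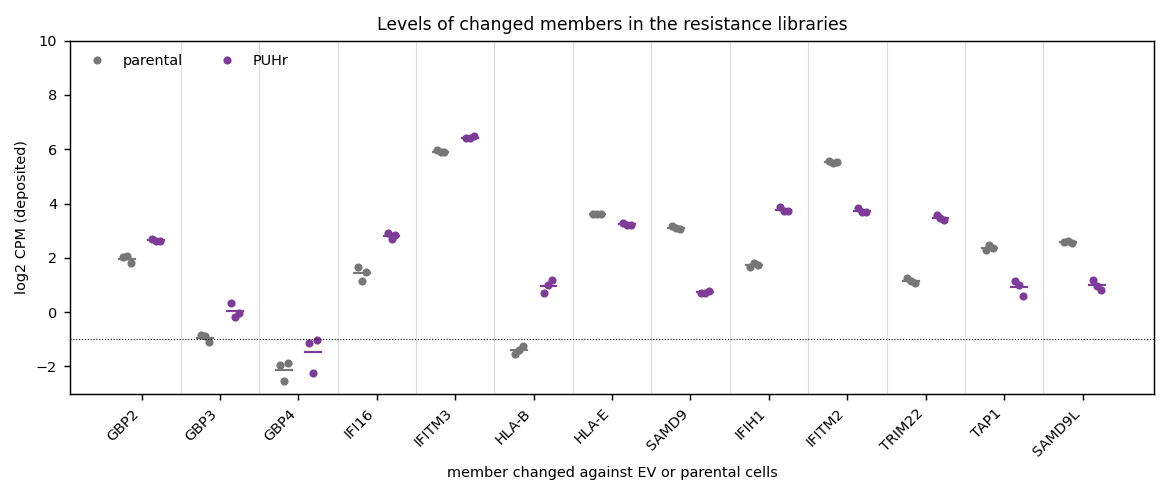
Deposited log2 CPM (y axis) in each parental and PUHr library of the same 13 members (x axis), with the group mean as a short line and the minimum of -1 as a dotted line. TRIM22, IFIH1, IFI16 and HLA-B are higher in PUHr and SAMD9, SAMD9L, IFITM2 and TAP1 are lower.

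The wider pathway was read from 118 other genes in 7 lists. The interferons themselves were not read at a testable level. In the resistance table none of the 21 ligand genes had more than 1 read in a library, and in the knockout table the single ligand listed, IFNK, had at most 11 reads. Among 9 genes of interferon receptors and their kinases, 3 rose and 2 fell in HSP90α-KO (backgrounds 27.5% and 26.6%), 1 rose and 3 fell in HSP90β-KO (17.2% for each direction), and in PUHr 1 rose and 1 fell of 8 tested (25.6% and 25.8%). IFNLR1, counted as higher in HSP90α-KO and as lower in HSP90β-KO, reached the minimum through HSP90α-KO only. The knockout counts of this list are therefore no evidence on their own. Median log2 fold changes of this list were 0.11, -0.12 and 0.03. The 9 negative regulators had medians of 0.16, -0.00 and 0.03. Single regulators lay far from that median in PUHr. The feedback inhibitors SOCS1 (0.75, adjusted p = 8.9e-05) and SOCS3 (0.96, 1.5e-07) rose, and PTPN6, a tyrosine phosphatase, was changed and lower (-1.82, 2.8e-06). These 3 were named after their values were seen.

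Of the 32 other interferon-stimulated genes tested in the knockout table, 12 rose and 8 fell in HSP90α-KO (backgrounds 27.5% and 26.6%) and 10 rose and 6 fell in HSP90β-KO (17.2% for each direction). HERC5 and HERC6, higher in HSP90β-KO and lower in HSP90α-KO, reached the minimum with the help of HSP90β-KO. These counts are therefore no evidence on their own. SP110, a nuclear body protein, was changed in opposite directions, by 1.17 in HSP90α-KO (23.3 against 10.3 CPM, adjusted p = 3.6e-12) and by -1.11 in HSP90β-KO (4.73 CPM, 2.9e-11), and the knockouts differed by 2.28 (1.6e-18). LGALS3BP, a secreted glycoprotein, was lower in HSP90α-KO (-1.50, 6.5e-21) and rose by 0.57 in HSP90β-KO (1.6e-11), a difference of -2.07 between the knockouts (3.2e-24). Of 33 tested in the resistance table, 10 rose and 17 fell in PUHr (backgrounds 25.6% and 25.8%), with a median of -0.14. SP110 (-1.97, 2.0e-09) and LGALS3BP (-1.26, 1.9e-12) were changed and lower there, and HERC5, the ligase that attaches ISG15, was changed and higher (1.62, 1.1e-10).

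Sensing adaptors and kinases had a median of 0.02 in HSP90α-KO, 0.09 in HSP90β-KO and -0.43 in PUHr, where 7 of 9 tested genes fell (background 25.8%). The largest fall among them was that of STING1, the adaptor of cytosolic DNA sensing, at 19.4 CPM in PUHr against 58.4 CPM in parental cells (-1.59, 8.8e-11). In class I antigen processing 8 of 11 tested genes fell and 2 rose in HSP90α-KO (median -0.38, backgrounds 26.6% and 27.5%), whereas 4 fell and 3 rose in HSP90β-KO (median 0.03, background 17.2% for each direction). In the direct contrast all 11 were lower in HSP90α-KO than in HSP90β-KO (median -0.41, background 29.8%). In PUHr 8 of 12 fell and 2 rose (backgrounds 25.8% and 25.6%). PSMB8 and PSMB9, immunoproteasome subunits encoded beside TAP1, were named after their values were seen. The counts against EV and parental cells that include PSMB8 are no evidence on their own, since it reached the minimum through the groups in which it was high. PSMB8 had 16 reads in EV, where no library reached the minimum, 52 in HSP90α-KO and 121 in HSP90β-KO. Its ratio to EV was 3.73 (95% exact binomial interval 2.1 to 7.0) in HSP90α-KO and 7.38 (4.37 to 13.3) in HSP90β-KO, given as a description. In PUHr it had 2 reads in all against 167 in parental cells, the only group there at the minimum, a ratio of 0.0116 after scaling to depth (0.00139 to 0.0424). PSMB9 was higher in HSP90β-KO (1.95, 8.4e-07) and in HSP90α-KO (0.95, 0.0026), on group means of at most 2.60 CPM. In PUHr PSMB9 had 19 reads against 70 in parental cells, a ratio of 0.262 (0.149 to 0.44). Of 6 class II genes tested, 4 rose and 1 fell in HSP90α-KO (backgrounds 27.5% and 26.6%) and 2 rose and 1 fell in HSP90β-KO (17.2% for each direction). In PUHr 4 fell (background 25.8%). CD74, 1 of the 4, reached the minimum through parental cells only, so this count is no evidence on its own. Those that rose in HSP90α-KO include CIITA, the master regulator of class II transcription (6.17 against 1.70 CPM, 1.81, 5.6e-10), and those that fell in PUHr include CTSS, a lysosomal protease (-1.19, 3.9e-10).

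**Figure D4:**
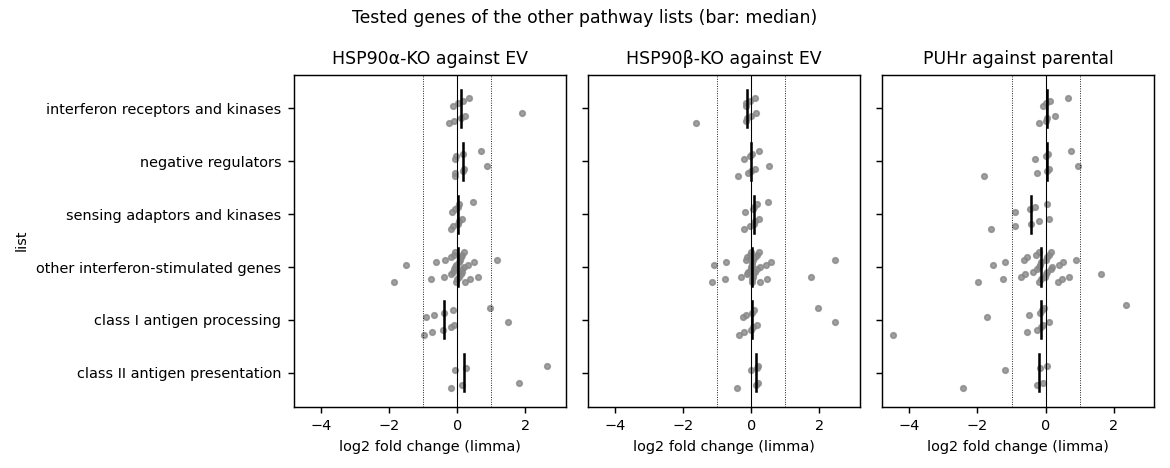
Log2 fold change (x axis) of each tested gene of 6 other pathway lists (y axis) in the 3 comparisons, with the list median as a black bar and dotted lines at -1 and 1. The medians lie between -0.43 and 0.20, and single genes lie far from them. The lowest point is PSMB8 in PUHr, which had 2 reads there, so that its fitted value depends on the prior count.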

How the data were processed

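RNA from 15 K562 libraries was analysed from 2 deposited tables. The authors isolated mRNA, made stranded libraries and sequenced them as single reads. The submitters' processing notes name FastQC, MultiQC, STAR, featureCounts, edgeR and the build hg38, and tool versions are not given in the sources used here. The deposited values are log2 CPM, which the authors made by scaling gene counts to library size and adding a prior count before the logarithm. After removal of the floor, values fell on whole multiples of a step in each library, off by at most 0.0013 reads, and the prior count lay between 1.75 and 2.37 reads. The headers of the parental libraries read DSMO, taken as a misspelt DMSO. A further 30 and 114 entries had no identifier and were not used.

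A gene was tested if at least 3 libraries of its table reached a log2 CPM of -1, which held for 17039 genes of the knockout and 16503 of the resistance table. Limma 3.58.1 was run in R 4.3.3 (lmFit, contrasts, eBayes with an intensity trend, 1 two-sided fit per table). P-values were adjusted by Benjamini-Hochberg over all tested genes. Fold changes are on the log2 scale with the prior count and understate those of low genes. Groups without a library above 3 reads counted as being at the floor, and ratios of summed reads have exact binomial intervals. Library values are given for each member changed against EV or parental cells and, in role groups without one, for the tested member with the smallest adjusted p. From each other list, up to 3 changed genes are named if their mean log2 CPM is at least 1. Members, roles and lists were chosen with earlier results of these data known, so they receive no test as a list. Replicates differed by 1.15 to 3.86 times counting variance (chi-square per degree of freedom), and no libraries were merged. Gene positions are from GENCODE v44 on GRCh38, and distances to neighbours were taken from the GENCODE starts. These starts can differ from the RefSeq starts used for the promoters. The promoter window shown for IFITM3, for instance, lies inside the GENCODE limits of that gene.

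The fit was tested on simulated counts with 200 planted genes. In HSP90α-KO against EV, with 17039 genes, all 100 of log2 size 2 and all 100 of size 3 were recovered and 3 others were called. In PUHr against parental, with 16503 genes, 100 of 100 of each size were recovered and 2 others were called. Only well-read genes were planted, and the spread was set alike for all genes rather than taken from the replicates. The recovery therefore says nothing about members near the floor or changes near the limit of 1. Alternatives covered the filter, 1 or 5 CPM as pseudocount, median centring, quantile normalization, the variance model, voom on recovered reads, the thresholds, a replicate block, fits of 6 libraries and each library left out. Some marker genes are not reported here.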

Additional observations from a re-analysis of the deposited data

Results flagged for a closer look

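For 4 members that reached the minimum in every library the HSP90α-KO and HSP90β-KO libraries lay on opposite sides of the shared EV libraries, and the direct contrast of the knockouts passed the test in limma. IFITM3 differed by -2.92 on the log2 scale (adjusted p = 1.2e-26), from -1.55 in HSP90α-KO and 1.37 in HSP90β-KO. SAMD9 differed by 2.50 (8.2e-16), from 1.86 and -0.64. BST2 differed by -0.98 (1.4e-18), from -0.44 and 0.54, and TRIM22 by -0.53 (1.8e-09), from -0.27 and 0.26, both inside the fold limit of 1. Each direction was shared by all 3 libraries of a group. The fitted values of GBP4 had the same form, 3.31 between the knockouts, from 2.40 and -0.92. They are given as a description, since GBP4 reached the minimum through HSP90α-KO only and had 51 reads there, 6 in EV and 0 in HSP90β-KO.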

How the results depend on the processing

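Of the alternatives for single members, 887 values kept their call as changed or not changed, 16 lost it and 10 gained it, and 0 reversed a called direction. In 13 further cases a member called changed was not tested, because it then missed the minimum. These were GBP3 and GBP4 in HSP90α-KO without any 1 of its libraries, HLA-B in PUHr without any 1 of its libraries, and with the higher minimum all 3 in HSP90α-KO and HLA-B in PUHr. Without 1 library, 5 values near 0 took the other sign, those of IFIH1 (down to -0.21) and TAP1 (down to -0.04) in HSP90α-KO and of STAT2 in HSP90β-KO (0.01), none past the adjusted p. The 16 losses among tested values came with 1 or 5 CPM added before the logarithm, which by construction shrinks the changes of low genes. With 1 CPM added, 5 members were changed in HSP90α-KO in place of 8. With 5 CPM added, 3 in place of 8 were changed in HSP90α-KO, 1 in place of 4 in HSP90β-KO and 4 in place of 8 in PUHr. With a minimum mean log2 CPM of 1, 5 were changed in HSP90α-KO. By the adjusted p alone, 19, 13 and 20 passed. Of 39 such results whose alternatives were run, 4 did not pass under at least 1 of them. They were ISG15 in PUHr with no filter (adjusted p = 0.068), IFI35 in HSP90α-KO without HSP90α-KO replicate 3 (0.052), IFIT3 in HSP90α-KO without 1 library (up to 0.1) and HLA-E in HSP90β-KO in 9 alternatives (up to 0.18). The gains were GBP4 in HSP90β-KO with voom (-2.12), TAP1 in HSP90β-KO with quantile normalization (1.04), with voom (1.02), without EV replicate 1 (1.07) and without HSP90β-KO replicate 3 (1.03), and GBP3 in PUHr with voom (1.08) and when either of 2 parental or 2 PUHr libraries was left out (1.02 to 1.09). IFI6 in HSP90α-KO, not among these single members, was called changed without EV replicate 3 (1.07) and without HSP90α-KO replicate 1 (1.08). Leaving out each library in turn gave 6 to 9 changed members in HSP90α-KO, 4 to 5 in HSP90β-KO and 7 to 9 in PUHr. The member median in HSP90α-KO, 0.04, turned to -0.05 with the higher minimum and ranged from -0.16 (without HSP90α-KO replicate 2) to 0.13 (without EV replicate 1), with -0.02 without HSP90α-KO replicate 1. That in HSP90β-KO, 0.07, ranged from 0.03 to 0.11 over all its alternatives. That in PUHr, -0.05, was -0.02 with no filter, -0.39 with the higher minimum, -0.02 with 5 CPM added, -0.08 with quantile normalization and -0.09 with median centring, and -0.10 to -0.04 when a library was left out. Except for the pseudocounts and minimum levels, the cause was not tested. A replicate block gave 8, 4 and 8 changed members, as without it. The numbers do not pair libraries, since deviations of libraries with the same number correlated at -0.048 to 0.045. Depth limits GBP3, GBP4 and HLA-B, which had at most 14 reads per library in some groups.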

Other observations

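IFNLR1, HERC5 and HERC6 had unlike levels in the 2 knockouts. They were chosen after their values were seen, with mean log2 CPM under 1, and reached the minimum level with the help of the group in which they were high, so their values are a description. IFNLR1, the ligand-binding chain of the interferon-λ receptor, had 66 reads in HSP90α-KO, 17 in EV and 1 in HSP90β-KO. It reached the minimum in HSP90α-KO alone. HERC5 had 2, 25 and 165 reads in the same order, with a ratio of 0.0142 for HSP90α-KO against HSP90β-KO (95% exact binomial interval 0.00171 to 0.0523), and it reached the minimum in 3 HSP90β-KO libraries and 1 EV library. HERC6, its neighbour in the HERC family, averaged 0.237, 0.468 and 1.72 CPM and reached the minimum in 3 HSP90β-KO and 2 EV libraries.

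NLRC5, the regulator of class I gene transcription, averaged 3.85 CPM in PUHr and 0.683 CPM in parental cells (log2 fold change 2.36, limma, adjusted p = 2.5e-08), while TAP1, PSMB8 and PSMB9 were lower and HLA-B was higher in the same cells. CD74, the class II invariant chain, averaged 4.17 CPM in HSP90α-KO against 0.59 in EV (2.65, 7.2e-11) and 0.22 CPM in PUHr against 1.37 in parental cells (16 reads against 94), where it reached the minimum through parental cells only. Both genes were chosen after their values were seen.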
